A study of Mus musculus with 12 samples.

Results

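The 10 genes described here handle vitamin D, phosphate and calcium in the kidney: Cyp24a1, Cyp27b1, Vdr, Kl, Fgfr1, Slc34a1, Slc34a3, Trpv5, Calb1 and S100g. They were chosen by name from a list drawn up with one result of these data in view, the higher Cyp24a1 level in kidneys of Trp/Trp mice, so the genotype comparison in whole kidney is given for all of them as a description, without a test. All 10 were present among the 15361 genes of the kidney table and among the 18145 genes of the F4/80+ table. The mice carried 2 copies of either the Arg-encoding major allele or the Trp-encoding minor allele of rs3184504, a coding polymorphism of Sh2b3, and both alleles were made with CRISPR-Cas9. Every mouse received angiotensin II, a peptide that raises blood pressure, for 4 weeks, and no library came from an untreated mouse. Polyadenylated RNA was sequenced in 4 groups of 3 libraries: Arg/Arg whole kidney, Trp/Trp whole kidney, Arg/Arg renal F4/80+ cells and Trp/Trp renal F4/80+ cells. The F4/80+ cells were taken with antibody-coated microbeads from separate kidneys after a Percoll gradient, so that each sample type came from its own kidneys. The labels name the libraries biological replicates. They give no age, sex or strain background, and p-values judge a group difference against the spread between these libraries.

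Vitamin D is activated in the proximal tubule by the 1-alpha-hydroxylase CYP27B1 and inactivated by the 24-hydroxylase CYP24A1, and the active hormone acts through the vitamin D receptor, VDR, on genes that include Cyp24a1 itself. The bone hormone FGF23, through FGFR1 and its co-receptor Klotho, the product of Kl, lowers phosphate reabsorption through the sodium-phosphate cotransporters NaPi-IIa (Slc34a1) and NaPi-IIc (Slc34a3) and shifts vitamin D metabolism from activation to inactivation. Calcium is recovered further down the nephron, in the distal convoluted and connecting tubule, where it enters through the channel TRPV5 and is carried by the calcium-binding proteins calbindin-D28k (Calb1) and calbindin-D9k (S100g).

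Promoters of 2 members are shown because these genes are used in different stretches of the nephron and stood on opposite sides of the sample type comparison below: Slc34a1 of the proximal tubule was lower in the F4/80+ libraries, and S100g of the distal tubule was higher. Each sequence is the 250 bases before the start site in RefSeq, build GRCm38.p6, written 5′ to 3′ on the gene's strand, at chr13:55399398-55399647 (plus strand) for Slc34a1 and at chrX:162964600-162964849 (minus strand) for S100g. Capitals mark every match, on either strand, to 4 short motifs: AGGTCA and GGTTCA, half-sites that nuclear receptors such as VDR bind in pairs, GTTAAT, the half-site of the tubule factor HNF1, and TATAAA, the TATA box.
Slc34a1: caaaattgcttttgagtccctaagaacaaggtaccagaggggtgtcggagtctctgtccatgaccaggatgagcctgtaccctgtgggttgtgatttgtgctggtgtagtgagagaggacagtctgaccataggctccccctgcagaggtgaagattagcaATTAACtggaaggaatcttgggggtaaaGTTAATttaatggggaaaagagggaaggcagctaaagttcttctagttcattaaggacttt
S100g: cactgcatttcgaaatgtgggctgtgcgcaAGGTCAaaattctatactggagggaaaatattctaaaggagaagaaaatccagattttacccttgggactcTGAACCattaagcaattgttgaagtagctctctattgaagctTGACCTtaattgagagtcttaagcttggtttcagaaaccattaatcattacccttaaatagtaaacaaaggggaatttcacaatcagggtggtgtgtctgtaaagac
The Slc34a1 stretch held GTTAAT 2 times, at -89 to -84 on the opposite strand and at -61 to -56 on the gene's strand, counted from the start site. The S100g stretch held AGGTCA at -220 to -215 and, on the opposite strand, at -107 to -102, and GGTTCA at -149 to -144 on the opposite strand. Of the other members, 5 had an entry in the RefSeq table used here. Slc34a3 held AGGTCA at -33 to -28 and, on the opposite strand, at -6 to -1. Trpv5 held TATAAA at -43 to -38, and Cyp27b1, Vdr and Kl held none of these motifs in their 250 bases. AGGTCA was present in 14.0% of all 32851 promoters of this length in the table, GGTTCA in 8.85%, GTTAAT in 6.43% and TATAAA in 12.4%. A direct repeat of AGGTCA or GGTTCA half-sites with 3 bases between them, the arrangement bound by VDR with its partner RXR, was present in 0.0152% of all promoters and in none of the 7 members with an entry. These matches describe the letters of the windows only. The RefSeq start sites of Slc34a1, Slc34a3, Vdr and Trpv5 lie away from the gene ends in the annotation that the count tables follow. For Trpv5 the window begins at 41680724 and the annotated gene ends at 41680769, so its TATAAA match lies inside the annotated gene. Cyp24a1, Fgfr1 and Calb1 had no promoter entry.

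Library totals ran from 19.6 to 54.7 M counts in kidney and from 35.9 to 51.6 M in F4/80+ libraries, but mitochondrial genes took 7.9 to 9.4% of the kidney counts and 70.1 to 83.6% of the F4/80+ counts. Levels are therefore given as CPM, counts scaled to 1000000 counts of nuclear protein-coding genes, of which there were 17.79 to 49.99 M per kidney library and 6.88 to 11.14 M per F4/80+ library. Along the first principal component of the kidney libraries (40.7% of the variance), Trp/Trp replicate 1 lay at 39.6 and the other 5 between -12.9 and -3.9. Among the F4/80+ libraries (first component 44.1%), Arg/Arg replicate 1 lay at -24.1, on the side of Trp/Trp replicates 2 and 3 at -52.2 and -23.1, whereas Arg/Arg replicates 2 and 3 lay at 53.4 and 39.9. The antigen used for the isolation, F4/80 (Adgre1), was at 1.26 to 10.8 CPM in Arg/Arg and 2.15 to 16.7 CPM in Trp/Trp F4/80+ libraries, against 4.11 to 5.996 CPM and 6.66 to 8.32 CPM in the kidneys. Of 16 macrophage markers, 15 were in the F4/80+ table (Fcgr1 was not listed, and Aif1 was at 0 in Arg/Arg replicate 3), and their sum was 64.3 to 242 CPM in Arg/Arg and 222 to 386 CPM in Trp/Trp F4/80+ libraries, against 300.4 to 354 CPM in Arg/Arg and 401 to 649 CPM in Trp/Trp kidneys. In 4 of the 6 F4/80+ libraries it was below every kidney. Of these 15 markers, 7 were lower and 4 higher in the F4/80+ libraries (edgeR, adjusted p under 0.05), against 32% lower and 32.3% higher over all genes. The 23 proximal tubule markers summed to 20925 to 64169 CPM in the same libraries, with none at 0. The libraries are therefore called F4/80+ preparations here.

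**Figure D1:**
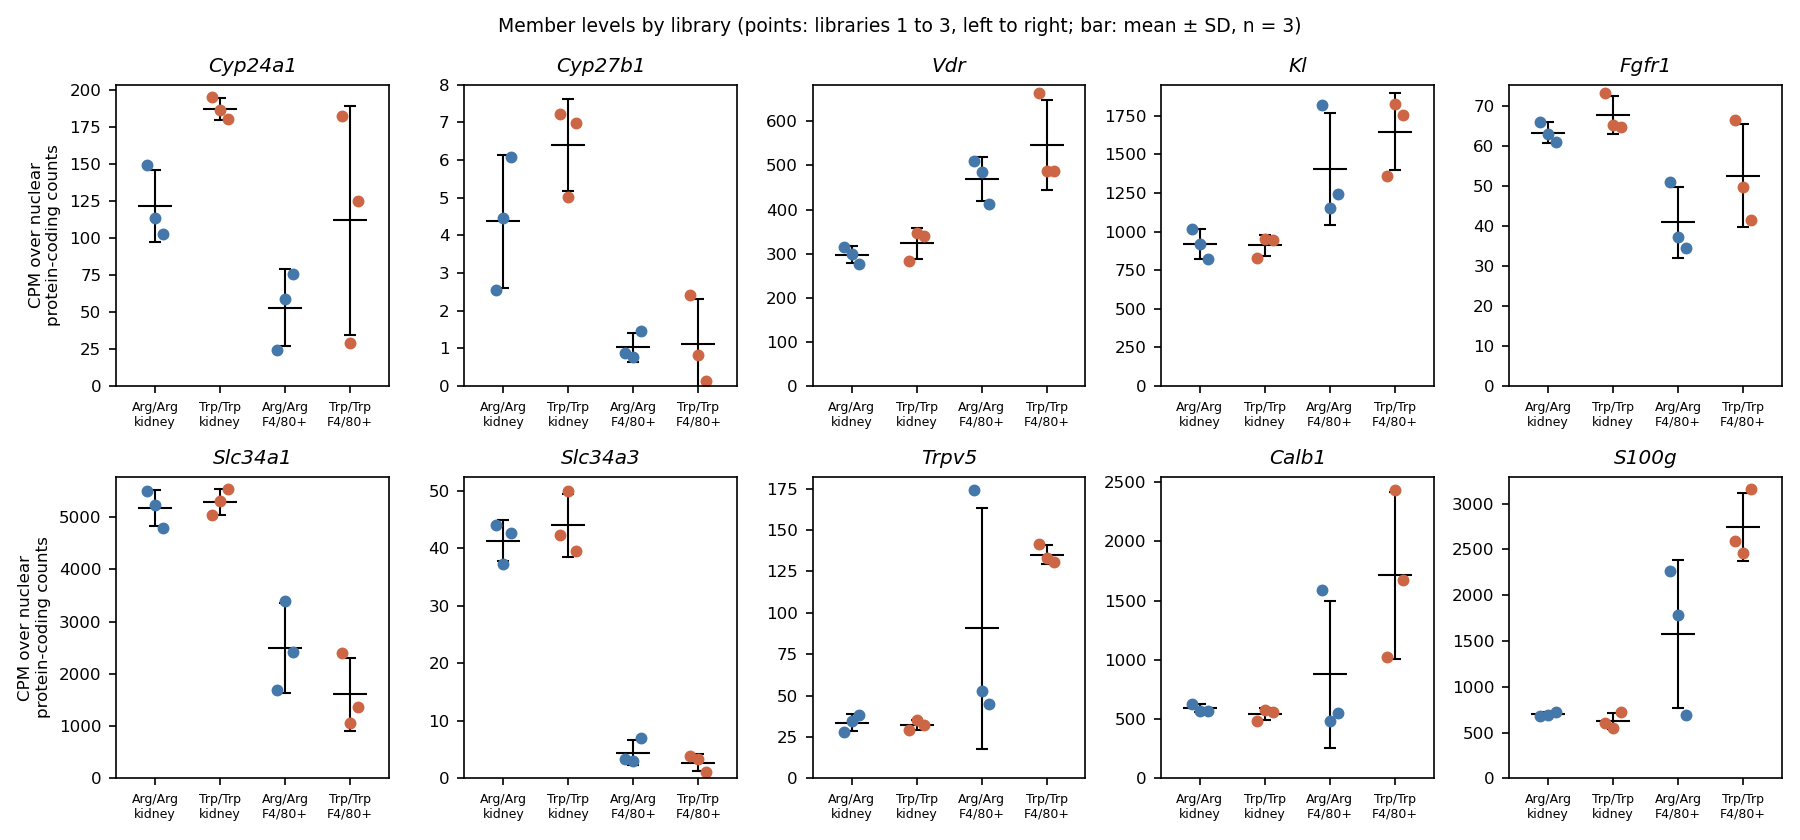
Level of each of the 10 genes in every library, in CPM over nuclear protein-coding counts (y axis from 0, its own scale in each panel), by genotype and sample type (x axis); points are libraries 1 to 3 from left to right and bars the mean ± SD of 3. Cyp24a1 in the Trp/Trp kidneys (181 to 195 CPM) lies above the Arg/Arg kidneys (103 to 149 CPM), and the F4/80+ preparations spread more widely than the kidneys for most genes.

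Among the enzymes, Cyp24a1 stood at 149, 113 and 103 CPM in the 3 Arg/Arg kidneys and at 195, 186 and 181 CPM in the 3 Trp/Trp kidneys. Every Trp/Trp kidney was above every Arg/Arg kidney, and the Trp/Trp values lay close together (187 ± 7.49 CPM against 122 ± 24.2 CPM, SD, n = 3). The fitted difference, Trp/Trp over Arg/Arg, was 0.60 ± 0.12 (SE) on the log2 scale, or 1.52-fold, and 0.59 without Trp/Trp replicate 1. This is the value that chose the list. The gene (ENSMUSG00000038567.5, chr2:170482708-170497145, minus strand, mm10) shares 83 exon bases with Pfdn4, a chaperone subunit gene on the opposite strand. Pfdn4 was looked at for this overlap after the Cyp24a1 values were seen. It was at 9.64 to 12.9 CPM in Arg/Arg and 9.48 to 10.9 CPM in Trp/Trp kidneys. The part of the overlap in the Cyp24a1 counts was not tested. Across all genes in kidney, edgeR called 0 of 14464 genes at an adjusted p under 0.05 (0%; 826 had an unadjusted p under 0.05), DESeq2 called 15 of 15357 (0.0977%) and the authors' deposited table called 15 of 14556 (0.103%). These counts are background, and nothing is read from them for the 10 genes.

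Cyp27b1, the activating enzyme (ENSMUSG00000006724.12, chr10:127048250-127053006, plus strand), was low: 2.55, 4.46 and 6.09 CPM in Arg/Arg and 7.23, 5.004 and 6.97 CPM in Trp/Trp kidneys. The highest Arg/Arg library lay above the lowest Trp/Trp library. The log2 difference was 0.52 ± 0.28 and moved between 0.26 and 0.82 as single libraries were left out. There were 16.9 to 58.5 Cyp24a1 counts for each Cyp27b1 count in Arg/Arg kidneys and 25.9 to 37.3 in Trp/Trp kidneys, so the ratio of the inactivating to the activating transcript overlapped between genotypes.

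The receptor Vdr (ENSMUSG00000022479.15, chr15:97854425-97910630, minus strand) was at 315, 299.9 and 277 CPM in Arg/Arg and at 283, 347 and 339 CPM in Trp/Trp kidneys. The groups overlapped, with Trp/Trp replicate 1 inside the Arg/Arg range, and the log2 difference was 0.11 ± 0.10, or 0.21 without that library. The Cyp24a1 count was 0.372 to 0.474 of the Vdr count in Arg/Arg kidneys and 0.532 to 0.689 of it in Trp/Trp kidneys. This ratio holds the Cyp24a1 values that chose the list, and no support is drawn from it. Kl (ENSMUSG00000058488.7, chr5:150952607-150993817, plus strand) stood at 1017, 922 and 823 CPM in Arg/Arg and at 831, 955 and 945 CPM in Trp/Trp kidneys. Its values overlapped almost fully, with a log2 difference of -0.03 ± 0.10. Fgfr1 (ENSMUSG00000031565.18, chr8:25513654-25575718, plus strand) was at 65.9, 63.0 and 60.9 CPM against 73.2, 65.1 and 64.7 CPM, and the log2 difference was 0.08 ± 0.06. Its highest value was that of Trp/Trp replicate 1, the library that stood apart.

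The phosphate cotransporters were nearly level between genotypes. Slc34a1 (ENSMUSG00000021490.11, chr13:55398187-55415592, plus strand) was at 5493, 5232 and 4798 CPM in Arg/Arg and at 5041, 5312 and 5531 CPM in Trp/Trp kidneys, a log2 difference of 0.02 ± 0.08. Slc34a3 (ENSMUSG00000006469.13, chr2:25228898-25234364, minus strand) was at 44.0, 37.2 and 42.6 CPM against 42.3, 49.96 and 39.6 CPM, a log2 difference of 0.08 ± 0.10. Both ranges overlapped.

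The 3 calcium genes had small negative differences. Trpv5 (ENSMUSG00000036899.10, chr6:41652173-41680769, minus strand) was at 28.2, 34.7 and 38.0 CPM in Arg/Arg and 29.2, 35.1 and 32.2 CPM in Trp/Trp kidneys, with a log2 difference of -0.08 ± 0.12. Calb1 (ENSMUSG00000028222.2, chr4:15881264-15908064, plus strand) was at 631, 571 and 572 CPM against 481, 577 and 563 CPM, and the lowest value was Trp/Trp replicate 1. Its log2 difference of -0.15 ± 0.09 was -0.05 without that library. S100g (ENSMUSG00000040808.4, chrX:162961992-162964599, minus strand) was at 684, 697 and 728 CPM against 605, 551 and 719 CPM, a log2 difference of -0.19 ± 0.10. In both cases the ranges overlapped. Over the 10 genes the median log2 difference in kidney was 0.05, with 6 positive and 4 negative, against 0.00 over all genes, and the genotypes did not overlap for 1 of the 10, Cyp24a1, against 10.3% of all genes. Since this contrast chose the list, nothing is read from that share.

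The cell type markers of the segments that hold these genes were similar between the kidney groups: the 23 proximal tubule markers summed to 40295 to 44495 CPM in Arg/Arg and 37130.0 to 45061 CPM in Trp/Trp kidneys, and the 12 markers of the distal convoluted and connecting tubule to 5033 to 5260.4 CPM and 5200.4 to 5335 CPM, with none at 0. Per 1000 CPM of proximal tubule markers, a ratio added after seeing the data, Cyp24a1 was 2.56 to 3.35 CPM in Arg/Arg and 4.01 to 5.26 CPM in Trp/Trp kidneys; these are the values that chose the list on another scale, and no support is drawn from them. The macrophage markers summed to 300.4 to 354 CPM in Arg/Arg and 401 to 649 CPM in Trp/Trp kidneys, without overlap, and all 16 had a positive log2 difference. The 5 fat markers summed to 76.2 to 83.9 CPM in Arg/Arg and 85.1 to 204 CPM in Trp/Trp kidneys, also without overlap, with 4 of 4 tested at a positive difference. The 10 fibroblast and smooth muscle markers summed to 402 to 433 CPM and 415 to 852 CPM, with 10 of 10 positive. The 6 B and plasma cell markers summed to 4.32 to 5.66 CPM and 4.67 to 90.03 CPM, with 5 of 5 tested positive. In all 4 lists the highest sum was that of Trp/Trp replicate 1, the library that stood apart. Trp/Trp replicates 2 and 3 were at 415 and 425 CPM for fibroblast and smooth muscle and 4.67 and 4.89 CPM for B and plasma cells. For fat they were at 85.1 and 95.6 CPM, and for macrophages at 401 and 476 CPM. No marker of these 4 lists passed the test in edgeR, and none was at 0. The 8 endothelium and 5 podocyte markers also all had a positive difference, and their sums too were highest in Trp/Trp replicate 1, at 728 and 671 CPM. Of the thick ascending limb markers 1 of 7 was positive, and of the collecting duct markers 3 of 10 tested. The part of any of these lists in the Cyp24a1 difference was not tested. In bulk RNA, fewer cells of a type and less RNA per cell cannot be told apart.

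To compare levels between genes, CPM was divided by the exon length in kilobases. In kidney, S100g stood first at 1383 ± 147 CPM per kb (SD, n = 6) and Slc34a1 second at 1119 ± 59.6 CPM per kb, ranks 8 and 13 of 15343 genes, with overlapping ranges. Calb1 followed at 117 ± 9.95 and Kl at 98.1 ± 8.09 CPM per kb, which overlapped, then Vdr at 54.9 ± 5.13 and Cyp24a1 at 43.4 ± 11.05 CPM per kb, which overlapped as well. The 4 least abundant, Slc34a3 at 18.1 ± 1.84, Trpv5 at 10.1 ± 1.16, Fgfr1 at 6.63 ± 0.42 and Cyp27b1 at 2.09 ± 0.68 CPM per kb, were each separated from their neighbours in all 6 libraries. Phosphate reabsorption genes thus differed widely in level, with Slc34a1 far above Slc34a3 in every kidney library. In the F4/80+ preparations S100g was again first, at 4497 ± 1768 CPM per kb. Slc34a1 (439 ± 182), Calb1 (267 ± 155) and Kl (164 ± 33.0 CPM per kb) formed a chain of overlapping ranges, followed by Vdr at 89.9 ± 14.7 CPM per kb, above all libraries of the genes after it. Trpv5 stood at 34.8 ± 16.1 CPM per kb, overlapping Cyp24a1 at 23.2 ± 17.1 CPM per kb, Fgfr1 was at 4.73 ± 1.19 CPM per kb, and the last pair, Slc34a3 at 1.53 ± 0.82 and Cyp27b1 at 0.42 ± 0.30 CPM per kb, overlapped. Trpv5, which stood below Slc34a3 in kidney, stood above it here in every library.

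**Figure D2:**
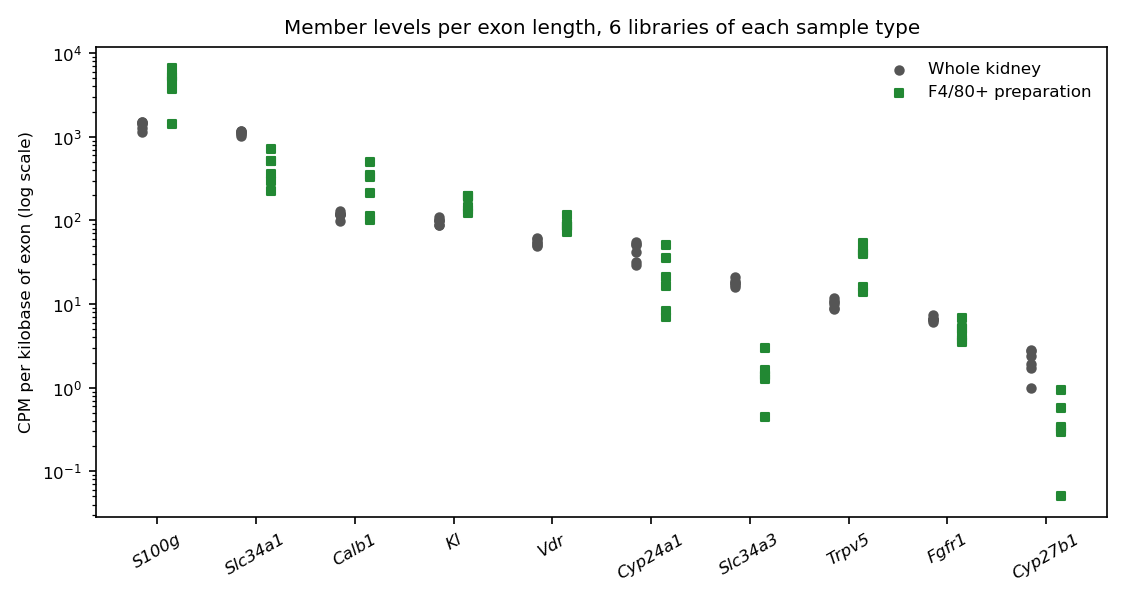
Level of the 10 genes per kilobase of exon (y axis, CPM per kb on a log scale) in the 6 kidney libraries (circles) and the 6 F4/80+ preparations (squares), ordered by the kidney mean (x axis). S100g is first in both, from 1383 CPM per kb in kidney to 4497 CPM per kb in F4/80+, and Slc34a3 drops from 18.1 to 1.53 CPM per kb.

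On the scale of nuclear protein-coding counts, the 10 genes did not all differ in the same direction between F4/80+ preparations and whole kidney. In a fit over all 12 libraries, which used the nuclear protein-coding genes that the tables share, the 3 calcium genes of the distal tubule and the receptor genes Vdr and Kl were higher in the F4/80+ preparations, and both phosphate cotransporters, Cyp27b1 and Fgfr1 were lower. Of the 10 genes, 9 passed (edgeR's quasi-likelihood test, Benjamini-Hochberg adjusted p under 0.05), against 64.3% of the 13578 genes tested; 5 were higher, against 32.3% of all genes, and 4 were lower, against 32% of all genes. The sample types did not overlap for 6 of the 10 genes, against 42.2% of all genes. Cyp27b1 is counted in the 9, the 4 and the 6. It entered this fit through the kidney libraries, where it was higher, so its place in these counts is a description. The median log2 difference of the 10 was 0.23, and that of all genes -0.01. Kidneys, isolation and count table all changed with the sample type, so these cannot be told apart from a difference between cells.

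Among the distal genes, Trpv5 was at 174, 52.4 and 44.7 CPM in Arg/Arg and 141, 133 and 130.4 CPM in Trp/Trp F4/80+ preparations, all above the 28.2 to 38.0 CPM of the kidneys. Its log2 difference, F4/80+ over kidney, was 1.83 ± 0.24 (SE; edgeR, adjusted p = 1.85e-05), or 3.57-fold, and 1.46 without Arg/Arg F4/80+ replicate 1. S100g was at 2261, 1783 and 689 CPM in Arg/Arg and 2592, 2465 and 3162 CPM in Trp/Trp preparations. One library, Arg/Arg replicate 3, lay within the kidney range of 551 to 728 CPM and the other 5 lay above it. S100g was 3.39-fold higher (log2 difference 1.76 ± 0.22, edgeR, adjusted p = 9.91e-06). Calb1 was at 1589.8, 485 and 555 CPM in Arg/Arg and 1026, 2437 and 1676 CPM in Trp/Trp preparations. The low pair, Arg/Arg replicates 2 and 3, lay in the kidney range of 481 to 631 CPM, and Calb1 was 2.30-fold higher over all 12 libraries (1.20 ± 0.25, edgeR, adjusted p = 0.000803).

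The receptor genes were higher by a smaller and more even step. Vdr was at 509, 486 and 413 CPM in Arg/Arg and 664, 487 and 488 CPM in Trp/Trp preparations, above every kidney (277 to 347 CPM). The log2 difference was 0.83 ± 0.12 (edgeR, adjusted p = 4.59e-05), or 1.78-fold. Kl was at 1823, 1155 and 1246 CPM in Arg/Arg and 1362, 1828 and 1756 CPM in Trp/Trp preparations, against 823 to 1017 CPM in kidney. The groups did not overlap, and the log2 difference was 0.85 ± 0.13 (edgeR, adjusted p = 5.15e-05). Fgfr1, the receptor that pairs with Klotho, went the other way: it was at 51.0, 37.2 and 34.3 CPM in Arg/Arg and 66.5, 49.7 and 41.5 CPM in Trp/Trp preparations. Of these 6 values, 5 were below the lowest kidney at 60.9 CPM, and Fgfr1 was 1.30-fold lower (-0.38 ± 0.12, edgeR, adjusted p = 0.0112).

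The genes of phosphate transport and vitamin D activation were lower in the F4/80+ preparations. Slc34a3 was at 3.34, 3.03 and 7.04 CPM in Arg/Arg and 3.86, 3.29 and 1.05 CPM in Trp/Trp preparations, from 8 to 72 counts per library, while every kidney held 37.2 CPM or more. It was 10.8-fold lower (log2 difference -3.43 ± 0.25, edgeR, adjusted p = 7.86e-08). Slc34a1 was at 1682, 3389.6 and 2412 CPM in Arg/Arg and 2400.04, 1062 and 1367 CPM in Trp/Trp preparations, all below the kidneys at 4798 CPM and more. It was 2.36-fold lower (-1.24 ± 0.24, edgeR, adjusted p = 0.000414), a smaller step than that of Slc34a3. Cyp27b1 rested on 6, 6 and 15 counts in Arg/Arg and 27, 7 and 1 counts in Trp/Trp preparations, or 0.131 to 2.42 CPM. All 6 were below the kidneys and Cyp27b1 was 4.22-fold lower (-2.08 ± 0.40). It did not pass the low-count filter among the F4/80+ libraries alone and entered this fit through the kidneys. A lower value was thus favoured in advance, so this difference is a description and no p is read from it.

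Cyp24a1 was the member that did not pass between sample types. It was at 24.7, 58.9 and 75.7 CPM in Arg/Arg and 183, 29.2 and 125 CPM in Trp/Trp preparations, and Trp/Trp replicates 1 and 3 lay within the kidney range of 103 to 195 CPM. The log2 difference was -0.81 ± 0.36 (edgeR, adjusted p = 0.0648). Its adjusted p was 0.0164 without Trp/Trp F4/80+ replicate 1, 0.0469 without Arg/Arg F4/80+ replicate 3 and 0.0244 without TMM scaling, and ranged from 0.0164 to 0.125 as single libraries were left out.

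**Figure D3:**
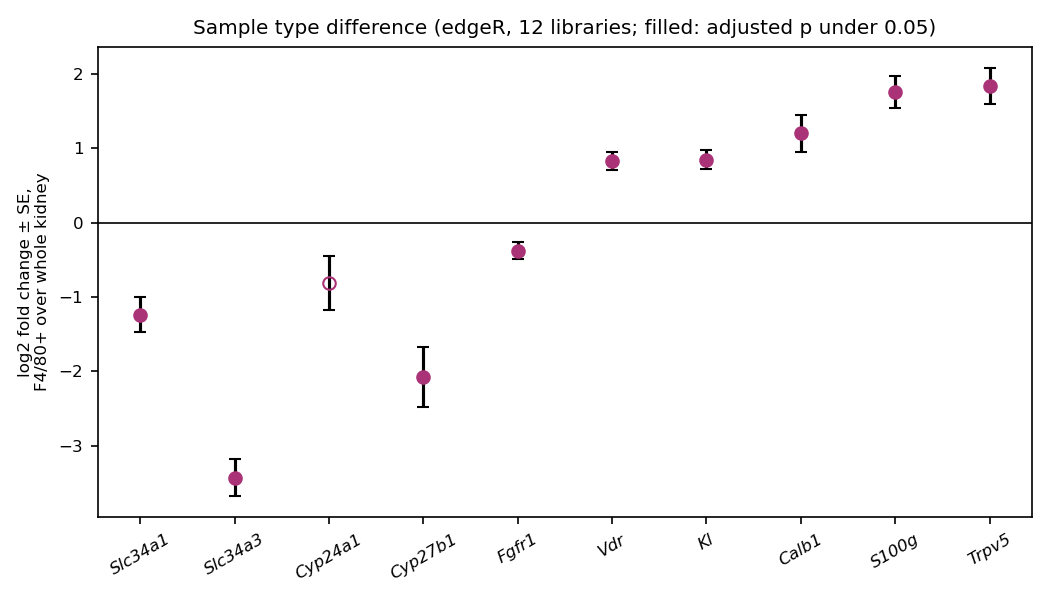
Log2 fold change of the 10 genes (x axis) between F4/80+ preparations and whole kidney (y axis; points edgeR estimates, bars SE, 6 against 6 libraries); filled points had an adjusted p under 0.05. The points run from -3.43 for Slc34a3 to 1.83 for Trpv5, and the open point is Cyp24a1 at -0.81. Cyp27b1 entered the fit through the kidney libraries, and its filled point is not read as a test.

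The segment markers in the same libraries were as follows. The 12 markers of the distal convoluted and connecting tubule summed to 6658 to 21324 CPM in Arg/Arg and 17598 to 22523 CPM in Trp/Trp F4/80+ preparations. All these sums were above the 5033 to 5335 CPM of the kidneys. Of the 12, 10 were higher and none lower (edgeR, adjusted p under 0.05), against 32.3% and 32% of all genes, with a median log2 difference of 1.66. Of the 23 proximal tubule markers, 9 were lower and 4 higher, against 32% lower and 32.3% higher over all genes, with a median of -0.48. Their sum was 32227 to 64169 CPM in Arg/Arg and 20925 to 38448 CPM in Trp/Trp preparations, around the kidney range of 37130.0 to 45061 CPM. None of either list was at 0 in any library. Per 1000 CPM of the distal markers, the ratio added after seeing the data, Trpv5 was 5.54 to 7.23 CPM in the kidneys and 5.77 to 8.17 CPM in the F4/80+ preparations, so the ranges of this ratio overlapped. S100g was 103 to 138 CPM in kidney and 104 to 196 CPM in F4/80+ on that scale, and Calb1 was 91.3 to 125 CPM and 53.4 to 108 CPM. Per 1000 CPM of the proximal markers the cotransporters stayed apart between sample types: Slc34a1 was 119 to 136 CPM in kidney and 40.4 to 62.4 CPM in F4/80+, and Slc34a3 was 0.858 to 1.18 CPM and 0.0313 to 0.157 CPM. On the same scale Cyp24a1 was 2.56 to 5.26 CPM in kidney and 0.767 to 4.75 CPM in F4/80+, with overlap. Cyp27b1 was 0.0573 to 0.195 CPM and 0.0039 to 0.063 CPM, which overlapped as well. These ratios are a description, and the part of tubule RNA in the sample type differences was not tested. The direction of 5 genes also depended on the denominator. With all counts of a library below the line, mitochondrial ones included, the log2 ratio of mean levels turned from 0.71 to -1.47 for Vdr, from 0.74 to -1.52 for Kl, from 1.78 to -0.47 for Trpv5, from 1.19 to -1.12 for Calb1 and from 1.70 to -0.53 for S100g, and the other 5 were lower on both scales.

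Between genotypes within the F4/80+ preparations, no member passed, and the values spread widely. Of the 10 genes, 9 had enough counts to be tested; Cyp27b1 did not pass the filter on low counts. edgeR called 0 of the 9 and 0 of all 15225 genes (0%; 1224 had an unadjusted p under 0.05), DESeq2 called 4 of 17088 genes (0.0234%) and the authors' deposited table called 20 of 5431 (0.368%), none of them a member. In the authors' deposited table Cyp27b1, Slc34a3 and Trpv5 had no adjusted p for this comparison, so 3 of the 10 genes could not have been called there. The genotypes did not overlap for 1 of the 9, S100g, against 10.5% of all genes. The median log2 difference of the 9, Trp/Trp over Arg/Arg, was 0.26, with 7 positive and 2 negative, against 0.01 over all genes. The genotype by sample type interaction, fitted over 12 libraries, called 0 of 13578 genes (0%; 921 had an unadjusted p under 0.05), and 580 genes without Arg/Arg F4/80+ replicate 1. Because it contains the kidney contrast, it is not read for single members.

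Cyp24a1, at the F4/80+ values given above, had a log2 difference of 0.94 ± 0.59 (edgeR, unadjusted p = 0.140, adjusted p = 0.709). Trp/Trp replicate 2 lay inside the Arg/Arg range, and Trp/Trp replicates 1 and 3 lay above all Arg/Arg preparations. Leaving out Trp/Trp replicate 1 gave a log2 difference of 0.32, leaving out Arg/Arg replicate 1 gave 0.55, and leaving out Trp/Trp replicate 2 gave 1.41. None of the 3 distal genes passed. The log2 difference was 0.54 ± 0.38 for Trpv5 (edgeR, adjusted p = 0.761), 0.88 ± 0.40 for Calb1 (edgeR, adjusted p = 0.618) and 0.70 ± 0.37 for S100g (edgeR, adjusted p = 0.640). The Arg/Arg library that stood with Trp/Trp in the principal component, replicate 1, had the highest Trpv5 of all 6, and without it the log2 differences were 1.24 for Trpv5 (edgeR, adjusted p = 0.0825), 1.45 for Calb1 (edgeR, adjusted p = 0.0860) and 0.91 for S100g (edgeR, adjusted p = 0.242). Other single libraries moved these values down: leaving out Arg/Arg replicate 2 put Trpv5 at 0.29, leaving out Arg/Arg replicate 3 put Trpv5 at 0.25 and S100g at 0.36, and leaving out Trp/Trp replicate 2 put Calb1 at 0.62.

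The cotransporters had the opposite sign, with -0.78 ± 0.41 for Slc34a1 (edgeR, adjusted p = 0.646) and -0.86 ± 0.54 for Slc34a3 (edgeR, adjusted p = 0.707). In both, the values of the genotypes overlapped. Single libraries moved these values too: leaving out Arg/Arg replicate 2 put Slc34a1 at -0.46, leaving out Trp/Trp replicate 2 put it at -0.51, leaving out Arg/Arg replicate 3 put Slc34a3 at -0.29, leaving out Trp/Trp replicate 3 put it at -0.50, and leaving out Trp/Trp replicate 1 put both at -1.27. Vdr at 0.10 ± 0.25 (edgeR, adjusted p = 0.976), Kl at 0.11 ± 0.25 (edgeR, adjusted p = 0.973) and Fgfr1 at 0.26 ± 0.24 (edgeR, adjusted p = 0.856) had the smallest differences. In the same comparison all 23 proximal markers had a negative log2 difference (median -0.91) and all 12 distal markers a positive one (median 0.57), and none of either list passed the test. The highest proximal sums were those of Arg/Arg replicates 2 and 3, the same libraries that held the lowest distal sums and the lowest Trpv5 and Calb1. Macrophage markers summed to 64.3 to 242 CPM in Arg/Arg and 222 to 386 CPM in Trp/Trp preparations, with overlap. Of these markers, 14 of 14 tested had a positive difference (median 1.35), none of which passed. The part of these markers in the member differences was not tested.

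**Figure D4:**
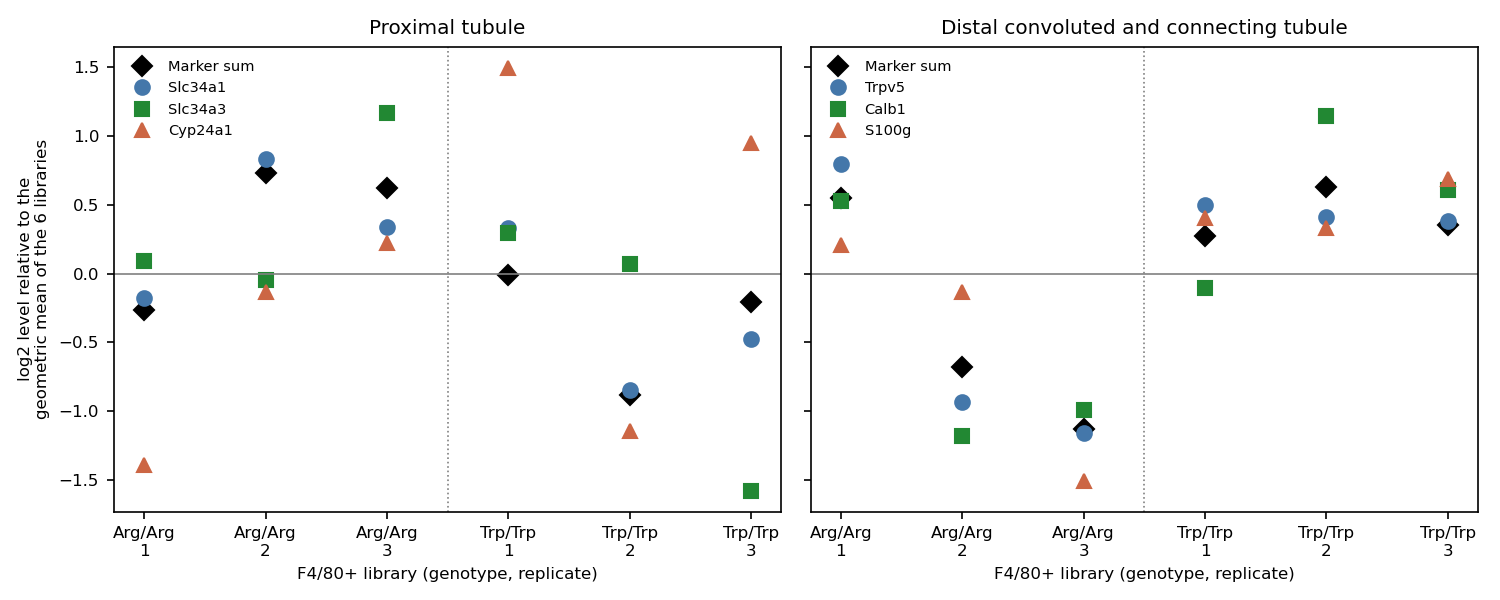
Each F4/80+ library (x axis, genotype and replicate) on the log2 scale relative to the geometric mean of the 6 (y axis), for the summed proximal tubule markers with Slc34a1, Slc34a3 and Cyp24a1 (left) and the summed distal convoluted and connecting tubule markers with Trpv5, Calb1 and S100g (right). Slc34a1 lies near the proximal sum in each library, while Cyp24a1 is at 1.49 in Trp/Trp replicate 1 and -1.39 in Arg/Arg replicate 1; Trpv5 lies near the distal sum.

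The other genes of these pathways were taken from 3 lists that leave out the 10 members. Their sample type differences are on the scale of nuclear protein-coding counts. They were not computed with all counts as the denominator, so their direction on that scale is not known here. Of the genes that supply vitamin D to the cell and partner its receptor, edgeR called 0 of 20 between genotypes in kidney and 0 of 19 in F4/80+ preparations, and 7 of 19 were higher and 5 lower in F4/80+ preparations than in kidney, against 32.3% higher and 32% lower over all genes. In kidney, the members of this list with the smallest p were Cyp27a1, a mitochondrial 25-hydroxylase, at a log2 difference of 0.13 ± 0.06, Cyp2r1, the main liver 25-hydroxylase, at 0.40 ± 0.25, the VDR partner Rxra at 0.06 ± 0.05 and the coactivator Ncoa2 at -0.09 ± 0.08. In F4/80+ preparations they were Cyp2r1 at -1.46 ± 0.44, the endocytic receptor genes Cubn at -1.03 ± 0.38 and Lrp2 at -0.96 ± 0.44, which take up vitamin D with its carrier protein from the filtrate, and their adaptor Dab2 at -0.64 ± 0.28. The median over the 19 was -0.32, with 14 negative, against 0.01 over all genes. Between sample types, Rxra fell from 206 ± 7.004 CPM in kidney to 74.7 ± 19.2 CPM in F4/80+ (SD, n = 6; -1.32 ± 0.17, edgeR, adjusted p = 1.54e-05), so that the receptor gene Vdr was higher and its partner lower in these preparations. Cubn rose (0.57 ± 0.21, edgeR, adjusted p = 0.0274), and Lrp2 was at 0.52 ± 0.25 (edgeR, adjusted p = 0.0798).

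Of the phosphate transport and hormone genes, edgeR called 0 of 20 between genotypes in kidney and 0 of 20 in F4/80+ preparations, with medians of -0.02 and -0.17. The smallest p values in kidney belonged to Galnt3, the glycosyltransferase that protects FGF23 from cleavage, at -0.28 ± 0.09, the stanniocalcin genes Stc1 at -0.60 ± 0.19 and Stc2 at 0.59 ± 0.18, and the phosphate transporter gene Slc20a1 at -0.16 ± 0.07. In F4/80+ preparations they belonged to Galnt3 at -0.65 ± 0.28, the cotransporter scaffold Pdzk1 at -0.80 ± 0.36, the phosphate exporter Xpr1 at -0.50 ± 0.24 and the receptor Fgfr2 at 0.56 ± 0.28. Between sample types 7 of 20 rose and 6 fell in F4/80+, near the 32.3% and 32% of all genes. Pdzk1, whose protein binds NaPi-IIa, fell from 543 ± 21.1 to 114 ± 43.4 CPM (-2.14 ± 0.21, edgeR, adjusted p = 1.37e-06), as Slc34a1 and Slc34a3 did, and Xpr1 rose from 139 ± 9.46 to 230.4 ± 42.9 CPM (0.85 ± 0.12, edgeR, adjusted p = 2.88e-05). Stc1 rose from 5.25 ± 1.46 to 22.6 ± 7.66 CPM (2.21 ± 0.18, edgeR, adjusted p = 1.91e-07).

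Of the calcium and magnesium genes, edgeR called 0 of 23 between genotypes in each sample type. In kidney the smallest p values were those of Egfr at 0.24 ± 0.07, the calcium channel Trpv6 at -0.68 ± 0.34, the tight junction gene Cldn19 at -0.16 ± 0.10 and the magnesium transport gene Cnnm2 at 0.08 ± 0.05. In F4/80+ preparations they were those of the paracellular channel genes Cldn16 at 1.20 ± 0.36 and Cldn19 at 1.10 ± 0.35, the magnesium channel Trpm6 at 0.77 ± 0.26 and uromodulin, Umod, at 0.89 ± 0.34, and 18 of the 23 had a positive difference (median 0.54). Between sample types 16 of 23 rose and 2 fell in F4/80+, against 32.3% and 32% of all genes, with a median of 0.85. Trpv6, the close relative of Trpv5, rose from 1.85 ± 0.79 to 7.91 ± 3.09 CPM (2.17 ± 0.25, edgeR, adjusted p = 5.96e-06) and Trpm6 from 43.0 ± 7.15 to 191 ± 80.6 CPM (2.19 ± 0.17, edgeR, adjusted p = 1.68e-07). Cldn16 rose (1.14 ± 0.22, edgeR, adjusted p = 0.000562), whereas Cldn19, which pairs with it in the thick ascending limb, fell (-1.74 ± 0.19, edgeR, adjusted p = 4.19e-06). This list shares 5 genes with the distal convoluted and connecting tubule markers and 4 with those of the thick ascending limb, so it is not independent of them.

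The genes whose level was most like that of Cyp24a1 are given for each sample type as a description, since the kidney values of Cyp24a1 also chose the list. Over the 6 kidney libraries, among 9653 genes with a mean of at least 10 CPM, Pearson's r of log2(CPM + 1) with Cyp24a1 was highest for Mfap3 (0.978), Bicra (0.975), Gaa (0.958), Dhx30 (0.958) and Nol12 (0.957). Mfap3, for instance, ran only from 34.2 to 36.9 CPM while Cyp24a1 ran from 103 to 195 CPM. Over the 6 F4/80+ libraries, among 9137 genes, it was highest for Rfxank (0.950), Jagn1 (0.939), Ipo4 (0.930), Ahsa1 (0.921) and Nat8f3 (0.920). Each r is a description of 6 libraries that share the genotype difference and the depth of their counts. Of the members, Fgfr1 had the highest r with Cyp24a1 in kidney (0.755) and S100g the lowest (-0.654). In F4/80+ preparations the r of the members in the set ran from -0.421 for Kl to 0.423 for Vdr.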

How the data were processed

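RNA-seq data of 12 libraries were used, in 4 groups of 3 taken from the labels' titles. The submitters' processing notes name the tools STAR, DRAGEN and DESeq2 and mm10 as the build. The annotation release and the strand setting are not given in the sources used here. For each sample type, the authors deposited a table with raw counts per gene and library, and, as DESeq2 writes them, a signal column (mean count after scaling by size factors), a log2 fold change, a ratio (its linear fold), score columns (SE and Wald statistic) and p-value columns. By its sign against the counts, the deposited log2 fold change had Arg/Arg in the numerator in kidney and Trp/Trp in F4/80+; the kidney sign was reversed. All genes in the kidney table were protein coding, with row sums of 12 or more. Row sums in the F4/80+ table were 10 or more.

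CPM was computed over nuclear protein-coding counts. Counts were fitted with edgeR 4.0.16 and limma 3.58.1 in R 4.3.3 (filterByExpr with a minimum count of 10 and a minimum total of 15, TMM, quasi-likelihood test, Benjamini-Hochberg adjustment over all genes tested, threshold 0.05), per sample type with genotype as the term, and over all 12 libraries with 4 group means. The SE is the log2 fold change divided by the square root of F. DESeq2 1.42.0, RLE scaling, no filter, no TMM, a replicate block, nuclear protein-coding genes only and leaving out each library were tried as alternatives. The procedure was tested on simulated data. The common biological coefficient of variation was 0.101 in kidney, 0.28 in F4/80+ libraries and 0.19 over all 12. Exon lengths came from GENCODE M21, in which 15356 of 15361 kidney and 18124 of 18145 F4/80+ identifiers were found and 15231 and 17979 had the same start and end. Promoters are from RefSeq, build GRCm38.p6, with an entry for 7 of 10 members. Python 3.11.15 and matplotlib 3.10.9 were used for figures.

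The members, the 3 pathway lists and the 10 marker lists were chosen with earlier results of these data known. Beside the members, the text names up to 4 genes per pathway list with the smallest p in either genotype comparison and a mean of at least 1 CPM, and the 5 genes most correlated with Cyp24a1 in each sample type among named genes of at least 10 CPM.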

Additional observations from a re-analysis of the deposited data

How the results depend on the processing

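Numbers of called genes: DESeq2 called 15 genes between genotypes in kidney and 4 in F4/80+ preparations, where edgeR called 0 in each under every other setting and with each library left out. The interaction called 0 to 580 genes as single libraries were left out, 580 without Arg/Arg F4/80+ replicate 1, 1 without Trp/Trp F4/80+ replicate 1 and 0 without any of the others. Between sample types 8099 to 9265 genes were called as libraries were left out, and without TMM the calls moved from 4390 higher and 4344 lower to 3578 higher and 5077 lower, with the median of all genes at -0.13. The replicate numbers did not pair the libraries: the correlation of same-numbered deviations was -0.077, -0.016 and -0.011 in kidney and -0.306, -0.486 and 0.18 in F4/80+. With the replicate block, 0 genes were called in either genotype comparison and in the interaction (691, 700 and 765 at an unadjusted p under 0.05), and 8427 between sample types.

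Members: in the leave-one-out fits the log2 difference changed sign in kidney for Kl (-0.109 to 0.047), Slc34a1 (-0.037 to 0.069), Slc34a3 (-0.036 to 0.135) and Trpv5 (-0.194 to 0.0078), and in F4/80+ for Vdr (-0.14 to 0.23) and Fgfr1 (-0.019 to 0.391). With all counts as the denominator, the ratio of F4/80+ over kidney changed sign for Vdr (-1.47), Kl (-1.52), Trpv5 (-0.47), Calb1 (-1.12) and S100g (-0.53). In kidney the log2 difference of Cyp24a1 ran from 0.49 to 0.77 in the leave-one-out fits. That difference chose the list, so no support is drawn from this range. The spread between F4/80+ libraries was wider than between kidneys (biological coefficient of variation 0.28 against 0.101) and their nuclear depth smaller. The part of either in the number of called genes was not tested.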

Other observations

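Egr1, an immediate early gene on the phosphate list, stood at 1885 ± 455 CPM (SD, n = 6) in the F4/80+ preparations. In whole kidney it was at 6.91 ± 2.51 CPM, a log2 difference of 8.19 ± 0.27 (edgeR, adjusted p = 2.00e-10). Dusp6, on the same list, was at -0.24 ± 0.12 (edgeR, adjusted p = 0.0885). Kidneys, isolation and count table changed with the sample type here too, and no cause of the Egr1 difference was tested. Egr1 was named after its values were seen. Its mean was 1548 ± 375 CPM over the Arg/Arg and 2221 ± 192 CPM over the Trp/Trp preparations (SD, n = 3), with a log2 difference of 0.41 ± 0.27 (edgeR, adjusted p = 0.734), and at 6.62 ± 1.95 and 7.20 ± 3.42 CPM in the kidneys.

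The number of Slc34a1 counts per Calb1 count was 1 of several count ratios formed. It ran from 8.39 to 9.16 in Arg/Arg and from 9.21 to 10.5 in Trp/Trp kidneys. In F4/80+ preparations it ran from 1.06 to 6.98 in Arg/Arg and from 0.436 to 2.34 in Trp/Trp. The kidney ranges nearly met, and the highest value was that of Trp/Trp replicate 1, which had the lowest kidney Calb1 (481 CPM). How often the ratio of 2 genes parts the genotypes was not computed, so nothing is read from the kidney ranges.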
